A study of Mus musculus with 6 samples.

Results

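The ABC transporters examined here are 36 mouse genes of subfamilies A, B, C, D and G, listed by name, among them Abca8a, whose strong rise under the BAP1 KO label is part of how the list is defined. All 36 were found by gene ID among the 36528 gene models of the files. The list was drawn up with this contrast in view, so the differences between labels are given as a description. The members' calls come from the edgeR fit over all genes, are counted beside the share called among all genes, and are no independent evidence for the list. The series measured polyA RNA of primary melanocytes, the pigment cells of mouse skin, in 3 libraries of genotype BAP1 KO by label (KO-labelled below) and 3 of genotype WT (WT-labelled), with no other allele, agent, age or strain named. BAP1 is a nuclear deubiquitinase that removes ubiquitin from histone H2A. The labels do not say how the gene was knocked out, which exons were removed, or whether libraries of a group came from separate mice or cultures, so the spread between libraries may be technical.

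ABC transporters are membrane proteins that use ATP to move lipids, metabolites, peptides or drugs across membranes. Subfamily A moves mainly lipids, and subfamily G holds cholesterol exporters and a multidrug pump. Subfamily B holds P-glycoproteins, which expel drugs, and mitochondrial and lysosomal carriers. Subfamily C holds the multidrug resistance proteins, which export anions and conjugates, and the sulfonylurea receptors, which regulate potassium channels. Subfamily D carries fatty acids into the peroxisome or serves vitamin B12 handling.

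Libraries held 33987690 to 43773769 uniquely aligned reads. Bap1 went against the genotype: KO-labelled libraries held 73.6, 77.3 and 72.5 CPM (read counts scaled to library size with TMM factors) and WT-labelled libraries 55.7, 55.6 and 55.8 CPM. Reads of all exons are pooled in the files, which cannot show the loss of single exons, and every direction below rests on the labels. Cell type markers also parted the labels. All 16 melanocyte markers were higher in the KO-labelled libraries, where they summed to 65550 to 66380 CPM against 7036 to 7088 CPM under the WT label. All 26 keratinocyte markers tested, of 28, were lower (980 to 1021 against 13470 to 13630 CPM), as were 19 of 21 fibroblast markers (279.9 to 300.3 against 1514 to 1554 CPM). Macrophage and other immune markers summed to 233 to 241 against 70.3 to 77.4 CPM, but of 10 tested 6 were called higher and 4 lower. Lyz2 alone stood at 177 against 22.6 CPM, while Cd14 stood at 0.686 against 13.7 CPM. Endothelial and mural markers summed to 162 to 176 against 483 to 518 CPM, with 3 of 8 tested called higher and 5 lower. Schwann cell markers summed to 3945 to 3949 against 1992 to 2095 CPM, with 8 of 14 called higher and 5 lower. The T cell marker Cd3e and the endothelial marker Cldn5 had 0 reads under the KO label. In bulk RNA, fewer cells of a type and less RNA per cell cannot be told apart, and the part of these cell types in the transporter values was not tested.

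Sequence before the start site used for the promoter window is shown for the 4 members whose window held CACGTG. This is the E-box core that MITF and other basic helix-loop-helix factors can bind. RefSeq windows (GRCm38.p6, 250 bases before to 50 after the start) existed for 26 of the 36 genes. CACGTG lay in 4 of the 26, against 8.09% of 27025 genes with a window. The windows of the 26 were richer in GC (median 60.7% against 52.7%) and in CpG (median 15 against 7) than those of all genes. The shares over all genes, here and below, are therefore not a like baseline for words with G, C or CpG. Here the start is that of the window. The annotated gene spans begin farther upstream, at base 110097580 (Abca8a), 109996274 (Abca8b), 118707856 (Abcc4) and 53159988 (Abca1). The stretches of Abca8a, Abca8b and Abcc4 therefore lie inside the annotated gene, and that of Abca1 lies partly inside. The stretches run 5′ to 3′ on the minus strand from 250 to 51 bases before the start, and capitals mark CACGTG or CATGTG on either strand.
Abca8a (chr11:110095988-110096187): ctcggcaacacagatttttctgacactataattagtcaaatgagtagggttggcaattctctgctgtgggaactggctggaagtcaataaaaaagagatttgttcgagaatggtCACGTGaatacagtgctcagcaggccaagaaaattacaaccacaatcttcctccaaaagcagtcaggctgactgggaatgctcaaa
Abca8b (chr11:109995896-109996095): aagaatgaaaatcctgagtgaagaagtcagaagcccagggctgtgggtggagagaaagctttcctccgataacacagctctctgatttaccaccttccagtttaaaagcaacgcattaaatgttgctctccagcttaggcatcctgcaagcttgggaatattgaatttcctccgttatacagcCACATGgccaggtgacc
Abcc4 (chr14:118706270-118706469): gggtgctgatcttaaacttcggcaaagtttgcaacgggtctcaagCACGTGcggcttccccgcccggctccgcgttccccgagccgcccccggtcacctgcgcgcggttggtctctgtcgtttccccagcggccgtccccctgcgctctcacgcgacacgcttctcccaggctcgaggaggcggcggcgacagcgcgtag
Abca1 (chr4:53159946-53160145): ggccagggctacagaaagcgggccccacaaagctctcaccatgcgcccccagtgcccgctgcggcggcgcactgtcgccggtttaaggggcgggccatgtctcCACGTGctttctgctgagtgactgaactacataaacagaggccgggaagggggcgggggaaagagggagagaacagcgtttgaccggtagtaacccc

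In Abca8a the CACGTG began 136 bases before the start, with the flanks TCACGTGA. In Abcc4 it began 205 bases before the start (GCACGTGC) and in Abca1 147 bases before (CCACGTGC). In Abca8b it began at base 19 after the start (TCACGTGT), in transcribed sequence, here shown at chr11:109995810-109995839, minus strand: gccatgcgcggtCACGTGtccgtggtgttt. The longer word TCACGTG, which contains CACGTG, was found in Abca8a and Abca8b among the 26 members and in 4.29% of all genes. CATGTG was found in 6 members, namely Abca3, Abca8b, Abcb1a, Abcb6, Abcc2 and Abcg2, against 15.9% of all genes, and its extension TCATGTG in Abcb1a (4.31% of all genes). The GC box GGGCGG lay in 15 of 26 (38.2% of all genes), TGACNNNGC in 5 (14%) and TATAAA in 4 (15.7%). The spaced direct repeat known for liver X receptors and a spaced palindrome of the steroid receptor kind were searched only as exact words. Those words lay in 4 and 112 of the 27025 windows (0.0148% and 0.414%) and in 0 of the 26. Words this rare would seldom fall in 26 windows, and variants with a changed base were not searched. Whether members hold such elements was therefore not tested. Of the 4 genes with CACGTG, Abca8a, Abca8b and Abcc4 were higher in the KO-labelled libraries and Abca1 was lower. A match of letters is a description and not a binding site.

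The transporters were expressed over a wide range. Of the 36, 16 exceeded 10 CPM in every library and 10 stayed under 1 CPM in every library. A filter on low counts passed 28, and Abca9, Abca13, Abcb4, Abcb5, Abcc6, Abcc8, Abcc9 and Abcg3 were not tested. Of the 28, 15 were called higher and 12 lower in the KO-labelled libraries at an edgeR adjusted p under 0.05, and Abca7 was not called. Among all 17121 genes tested, 39.4% were called higher and 42.1% lower. For 27 of the 28 no library of one label lay within the range of the other, as for 82.7% of all tested genes. Differences of over 2-fold were called for 10 higher members (13.9% of all tested genes) and 7 lower members (22.7%). The median log2 fold change was 0.28 over the 28 members and -0.03 over all genes. Because the contrast helped choose the list, nothing is read from these counts.

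**Figure D1:**
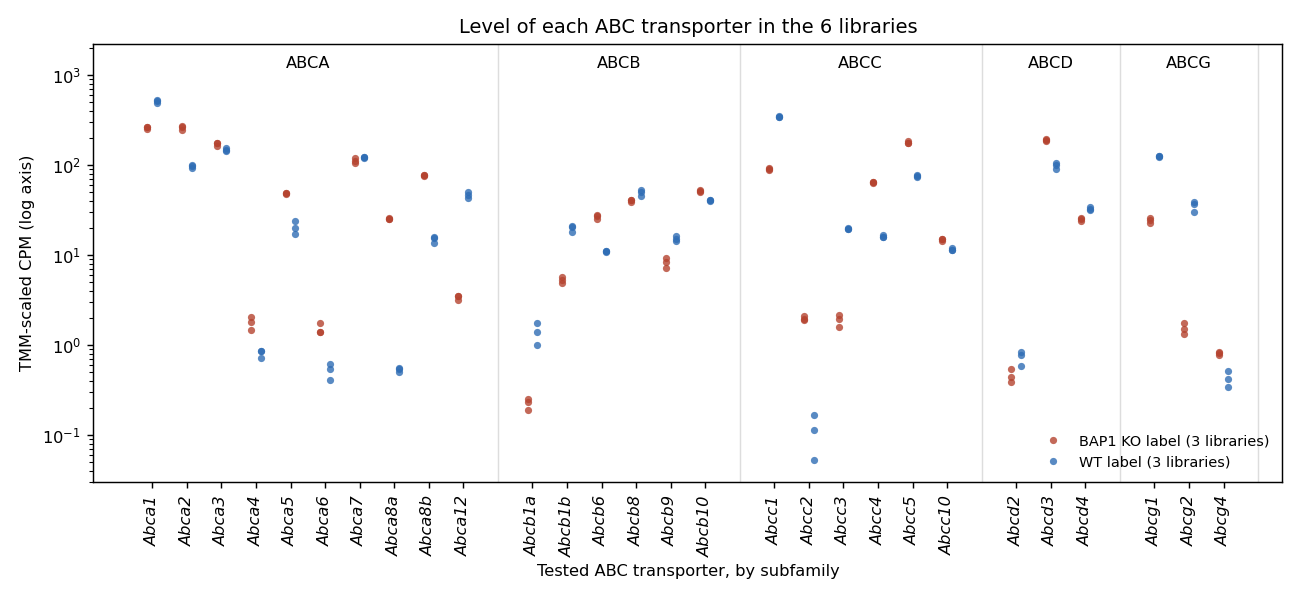
TMM-scaled CPM (log axis) of the 28 tested ABC transporters, grouped by subfamily, with 1 point per library (red, KO label; blue, WT label). Points of the groups overlap only for Abca7; Abca8a lies at 24.9 to 25.6 CPM under the KO label and 0.509 to 0.558 CPM under the WT label.

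Subfamily A held the highest log2 fold change of the 28 tested members, and its members differed in both directions. Of its 12 genes 10 were tested, with 7 called higher and 2 lower, beside 39.4% and 42.1% of all tested genes. Abca8a, a lipid transporter of the Abca6-like cluster, was read at 25.1, 24.9 and 25.6 CPM in the KO-labelled libraries and at 0.547, 0.558 and 0.509 CPM in those labelled WT. The 3 libraries of each group lay close together and far from the other group. The counts were 932, 1063 and 917 reads against 19, 21 and 21 reads. The log2 fold change was 5.54 (SE 0.091), a 46.7-fold difference and the rank 18 highest of all genes tested. Abca8b, its neighbour and paralogue, stood at 75.5, 76.9 and 77.9 CPM under the KO label and 15.8, 15.6 and 13.5 CPM under the WT label, a 5.13-fold difference (log2 2.36, SE 0.061). By annotation 1.64% of the 50-base sequences of Abca8a are shared with Abca8b.

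Abca8a and Abca8b sit in a row with Abca9, Abca6 and Abca5 on the minus strand of chromosome 11 (GRCm38), from base 109932206 at the end of Abca8b to base 110337723 at the start of Abca5. Abca8a itself spans bases 110025634 to 110097580, with 38 merged exons. Abca5, a lysosomal lipid transporter, stood at 47.3, 48.9 and 48.8 CPM under the KO label and at 20.1, 24.0 and 17.0 CPM under the WT label (log2 1.25, SE 0.099). The WT libraries varied among themselves more than the others did, with a coefficient of variation of 17.4% against 1.76%. Abca6 was low, at 1.75, 1.38 and 1.39 CPM against 0.547, 0.612 and 0.412 CPM (log2 1.53, SE 0.21). Abca9 had 9, 10 and 3 reads against 1, 3 and 4 reads, which overlap, and was not tested. The 4 tested genes of the row were all called higher in the KO-labelled libraries, and the rise of Abca8a helped define the list. Within 500 kb of the row 8 other genes were tested, chosen by position after the members' values were known. Of these 4 were called higher, 1 was called lower and 3 were not called, with a median log2 of 0.13. Among all tested genes 39.4% were called higher and 42.1% lower, and nothing is read from these counts. The closest tested neighbours were Fam20a, a secretory kinase pseudoenzyme gene, at 0.54 (SE 0.07), and Map2k6, a p38 kinase activator, at -0.08 (SE 0.13).

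The chromosome 5 cluster of subfamily B, from base 8567091 (Abcb1a) to base 8959226 (Abcb4) on the plus strand, lay the other way. Abcb1b, a P-glycoprotein that expels drugs, stood at 4.96, 5.72 and 5.24 CPM under the KO label and at 21.2, 20.4 and 18.0 CPM under the WT label (log2 -1.90, SE 0.087). Its paralogue Abcb1a stood at 0.189, 0.234 and 0.251 CPM against 1.75, 1.38 and 0.994 CPM (log2 -2.58, SE 0.30). That value rests on a group with few reads, since Abcb1a had 7, 10 and 9 reads under the KO label. The groups did not overlap for either gene. Both are uncertain because 22.5% of the 50-base sequences of Abcb1a and 12.8% of those of Abcb1b are shared with other genes, mostly with each other. By deposited RPKM (reads per length, size-factor adjusted), Abcb1b made up 96.3% to 97.1% of the pair under the KO label and 93.8% to 95.8% under the WT label. Abcb4, the phosphatidylcholine flippase beside them, had 7, 17 and 4 reads against 4, 8 and 5 reads and was not tested. Between Abcb1a and Abcb1b lies the long noncoding Gm5106, which overlaps 1.79% of the exons of Abcb1b and differed by -2.17 (SE 0.28). Within 500 kb of this cluster 10 other genes were tested, of which 3 were called higher and 2 lower (median log2 0.14). The shares over all tested genes were 39.4% and 42.1%.

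**Figure D2:**
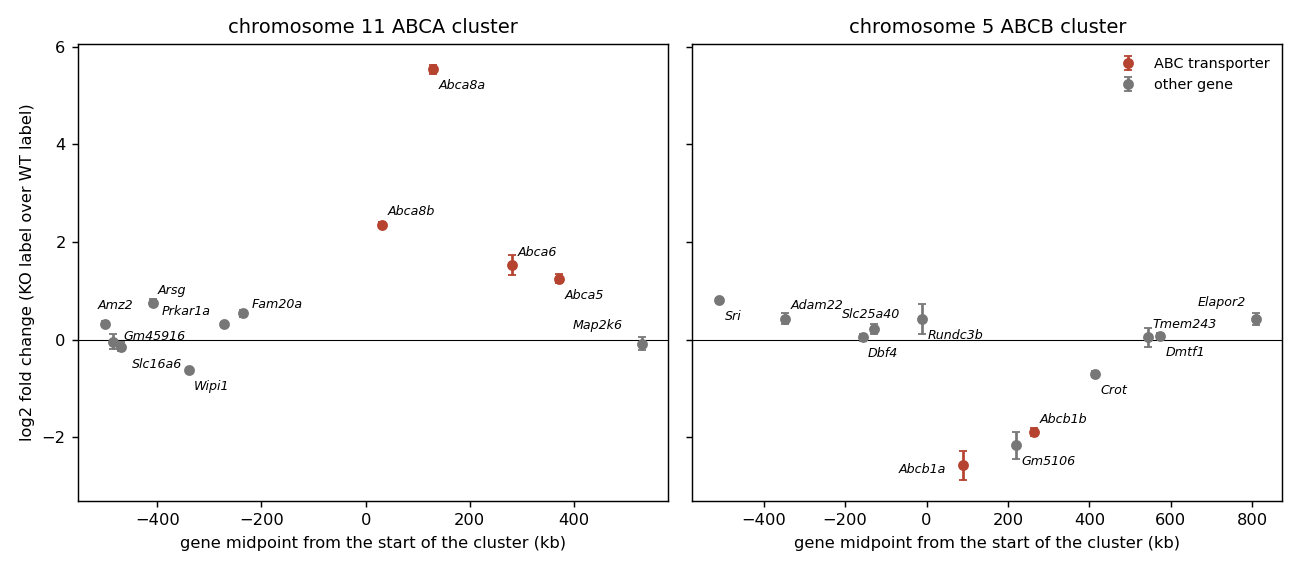
Log2 fold change (KO-labelled over WT-labelled libraries, bars are standard errors) against the distance of each gene's midpoint from the start of its cluster in kb, for tested genes of the chromosome 11 and chromosome 5 clusters and their surroundings. ABC transporters (red) reach 5.54 at Abca8a on chromosome 11 and -2.58 at Abcb1a on chromosome 5. Of the other genes (grey) only Gm5106, at -2.17, lies beyond 1 in either direction. Abcb1a and Gm5106 were low under the KO label, at means of 0.225 and 0.138 CPM.

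The cholesterol exporters Abca1 and Abcg1 were lower in the KO-labelled libraries. Abca1, which loads cholesterol onto lipid-poor apolipoprotein, stood at 264, 264 and 252 CPM under the KO label and at 515, 531 and 487 CPM under the WT label (log2 -0.97, SE 0.042). Abcg1, which exports cholesterol to mature lipoprotein particles, stood at 24.4, 25.7 and 22.8 CPM against 124, 125 and 127 CPM (log2 -2.36, SE 0.05), a 5.14-fold difference. Both had groups that did not overlap. Abcg4, a relative of Abcg1 best known in the brain, was low and differed in the other direction, at 0.782, 0.821 and 0.837 CPM against 0.518, 0.425 and 0.340 CPM (log2 0.94, SE 0.22). Abca7, a phospholipid transporter, stood at 110.1, 120.0 and 106 CPM against 122, 119 and 123 CPM. Its groups overlapped, since BAP1 KO replicate 2 lay above WT replicate 2.

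Genes that work with these exporters were called in both directions. Among all genes tested 39.4% were called higher and 42.1% lower. The lists were chosen with earlier results of these data known, so nothing is read from their counts. Of 18 genes for liver X receptors, which switch on Abca1 and Abcg1 when sterols accumulate, their partners and their other targets, 11 were called higher and 6 lower (median log2 0.83). The leading ones were Arl4c, a small GTPase, at 15.9 ± 0.336 against 251 ± 6.39 CPM (SD, n = 3 each; edgeR adjusted p = 1.84e-13), Apoe, an apolipoprotein that accepts cholesterol, at 995 ± 17.1 against 159 ± 10.4 CPM (edgeR adjusted p = 3.30e-12), Mylip, which degrades the LDL receptor, at 224 ± 1.97 against 54.2 ± 0.744 CPM (edgeR adjusted p = 3.04e-12) and Smpdl3a at 17.5 ± 1.15 against 67.3 ± 3.83 CPM (edgeR adjusted p = 2.74e-10). Arl4c and Smpdl3a fell while Apoe and Mylip rose. The receptors themselves, named after their values were seen, differed in direction: Nr1h2 stood at 147 CPM against 84.5 CPM, and Nr1h3 at 0.740 CPM against 1.59 CPM. Of 15 tested acceptors, receptors and cholesterol handling genes, of 16, 11 were called higher and 2 lower (median 0.57). Besides Apoe they were led by Pltp, a phospholipid transfer protein (log2 1.94, SE 0.05), Nceh1, which hydrolyses cholesterol esters (1.91, SE 0.068), and Lipa, the lysosomal acid lipase (1.30, SE 0.051). Apoa1, the classical partner of ABCA1, had 0 reads under the KO label and 1 under the WT label.

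The other lipid transporters of subfamily A differed in both directions, with Abca2, Abca3 and Abca4 higher and Abca12 lower in the KO-labelled libraries. Abca2, a transporter of endosomes and lysosomes, stood at 266, 273 and 245 CPM under the KO label and at 98.5, 93.3 and 101 CPM under the WT label (log2 1.42, SE 0.051). Abca3, which fills the lamellar bodies of the lung, stood at 175, 177 and 163 CPM against 146, 144 and 155 CPM (log2 0.21, SE 0.046). The groups for Abca3 did not overlap, and 10.1% of its 50-base sequences are shared, mostly with D330041H03Rik. Abca4, the retinoid transporter of the retina, was low at 1.48, 2.04 and 1.81 CPM against 0.863, 0.718 and 0.873 CPM (log2 1.12, SE 0.18). Abca12, which loads lipid into the lamellar granules of keratinocytes, was lower at 3.48, 3.47 and 3.21 CPM against 50.6, 46.2 and 43.1 CPM (log2 -3.78, SE 0.083), a 13.7-fold difference. The keratinocyte markers, at a median log2 of -4.0, were lower in the same libraries. Abca13, the longest member, had 0, 4 and 1 reads against 9, 2 and 6 reads.

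Multidrug pumps differed in both directions. Abcg2, the breast cancer resistance protein, stood at 1.78, 1.52 and 1.34 CPM under the KO label and at 36.8, 38.4 and 29.8 CPM under the WT label. This was the largest lower difference among the 28 tested members (log2 -4.49, SE 0.13), a 22.5-fold difference. Abcc1, a pump for glutathione conjugates, stood at 90.5, 92.9 and 88.7 CPM against 339, 337 and 345 CPM (log2 -1.91, SE 0.037). Abcc3, an exporter of glucuronides and bile acids, stood at 1.97, 2.16 and 1.59 CPM against 19.5, 19.9 and 19.6 CPM (log2 -3.35, SE 0.095). Abcc4, which exports cyclic nucleotides and prostaglandins, was higher at 64.1, 62.9 and 64.8 CPM against 15.7, 16.0 and 16.7 CPM (log2 1.99, SE 0.048). Abcc5, another exporter of cyclic nucleotides, was higher at 177, 185 and 175 CPM against 74.9, 76.7 and 73.5 CPM (log2 1.25, SE 0.041). For each of these pumps every library of a group lay on the same side of the other group.

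Of the remaining members of subfamily C, Abcc2 was low but higher under the KO label, Abcc10 differed little, and the others were hardly read. Abcc2, an exporter of conjugates known from liver canaliculi, had 72, 82 and 76 reads under the KO label and 4, 2 and 7 under the WT label. Its log2 fold change of 4.08 (SE 0.27) rests on a group with few reads. Abcc10 stood at 14.96, 14.9 and 14.5 CPM against 11.4, 11.4 and 11.8 CPM (log2 0.36, SE 0.059). The sulfonylurea receptors Abcc8 (1, 3 and 3 against 3, 3 and 4 reads) and Abcc9 (3, 0 and 0 against 8, 6 and 7 reads) were hardly read. Their potassium channel partners had 0 reads under the KO label, with 1, 1 and 2 reads for Kcnj8 and 2, 3 and 4 reads for Kcnj11 under the WT label. Abcc6, which is mutated in pseudoxanthoma elasticum, had 1, 1 and 0 against 0, 0 and 4 reads. At this depth a difference was not detectable for Abcc6 or Abcc8.

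Genes that make or sense the cargo of these pumps moved both ways. The counts stand beside 39.4% of all tested genes called higher and 42.1% lower. Of 16 glutathione genes, 8 were called higher and 6 lower (median 0.19). Gsto1, an omega class transferase, fell from 1937 ± 58.7 to 48.9 ± 1.39 CPM (edgeR adjusted p = 5.30e-14), and Mgst2 was lower at -3.72 (SE 0.27). Gstm2 and Gstm1, mu class transferases, were higher at 2.58 (SE 0.097) and 2.31 (SE 0.052). Of 13 xenobiotic sensors and enzymes tested, of 14, 7 were called higher and 5 lower (median 0.64). Aldh3a1 was lower at -3.38 (SE 0.13) and the cytochrome P450 reductase Por at -1.96 (SE 0.04), and Ugt1a6a and Nqo1 were higher at 1.44 (SE 0.069) and 1.22 (SE 0.05). All 8 of these genes passed an edgeR adjusted p under 0.05.

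Of the organelle carriers of subfamily B, Abcb6 and Abcb10 were higher and Abcb8 and Abcb9 lower in the KO-labelled libraries. Abcb6, a porphyrin carrier also found in melanosomes and lysosomes, stood at 27.3, 28.2 and 25.4 CPM under the KO label and at 11.1, 10.7 and 11.03 CPM under the WT label (log2 1.30, SE 0.061). Its value is uncertain, since 55.2% of its exons overlap Gm29253 and the libraries do not mark strand. Abcb10, a carrier of the inner mitochondrial membrane needed for haem synthesis, stood at 50.1, 52.9 and 51.4 CPM against 41.3, 40.4 and 40.3 CPM (log2 0.34, SE 0.044), with 10.3% of its exons overlapping other genes. Abcb8, another mitochondrial carrier, was lower at 41.2, 40.9 and 39.2 CPM against 49.5, 45.2 and 53.2 CPM (log2 -0.29, SE 0.06). Abcb9, a lysosomal peptide transporter, was lower at 8.38, 9.22 and 7.17 CPM against 16.5, 14.3 and 15.04 CPM (log2 -0.88, SE 0.095). Abcb5, described as a marker of melanoma subpopulations, had 1, 1 and 2 reads against 17, 13 and 7 reads and was not tested.

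Of 16 haem synthesis and mitochondrial carrier genes, which supply or use the cargo of Abcb6, Abcb8 and Abcb10, 8 were called higher and 6 lower (median 0.16). The shares over all tested genes were 39.4% and 42.1%. Alad, an early enzyme of haem synthesis, was lower at -1.86 (SE 0.049, edgeR adjusted p = 5.03e-11). Fech, the last enzyme, was higher at 1.81 (SE 0.036, edgeR adjusted p = 5.48e-12), and Iscu and Hmox1 were higher at 0.97 (SE 0.066) and 0.89 (SE 0.043).

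The peroxisomal subfamily D was the smallest group and held the most abundant transporter under the KO label. Abcd3, which carries branched-chain and other acyl-CoA into peroxisomes, stood at 190.5, 185 and 194 CPM under the KO label and at 100.5, 106 and 90.0 CPM under the WT label (log2 0.94, SE 0.058). Abcd4, a lysosomal carrier for vitamin B12, was lower at 25.8, 24.9 and 23.9 CPM against 32.5, 31.6 and 34.3 CPM (log2 -0.40, SE 0.054). Abcd2, a carrier of very long chain acyl-CoA, had 20, 19 and 14 reads against 27, 32 and 24 reads (log2 -0.67, SE 0.24). Its call was lost with DESeq2 and when any of 4 libraries was left out. Of 17 peroxisome genes, 11 were called higher and 3 lower (median 0.21), beside 39.4% and 42.1% of all tested genes. Among the higher ones were the beta-oxidation enzymes Ehhadh (1.70, SE 0.057) and Amacr (1.10, SE 0.067) and the alpha-oxidation enzyme Phyh (1.02, SE 0.063).

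**Figure D3:**
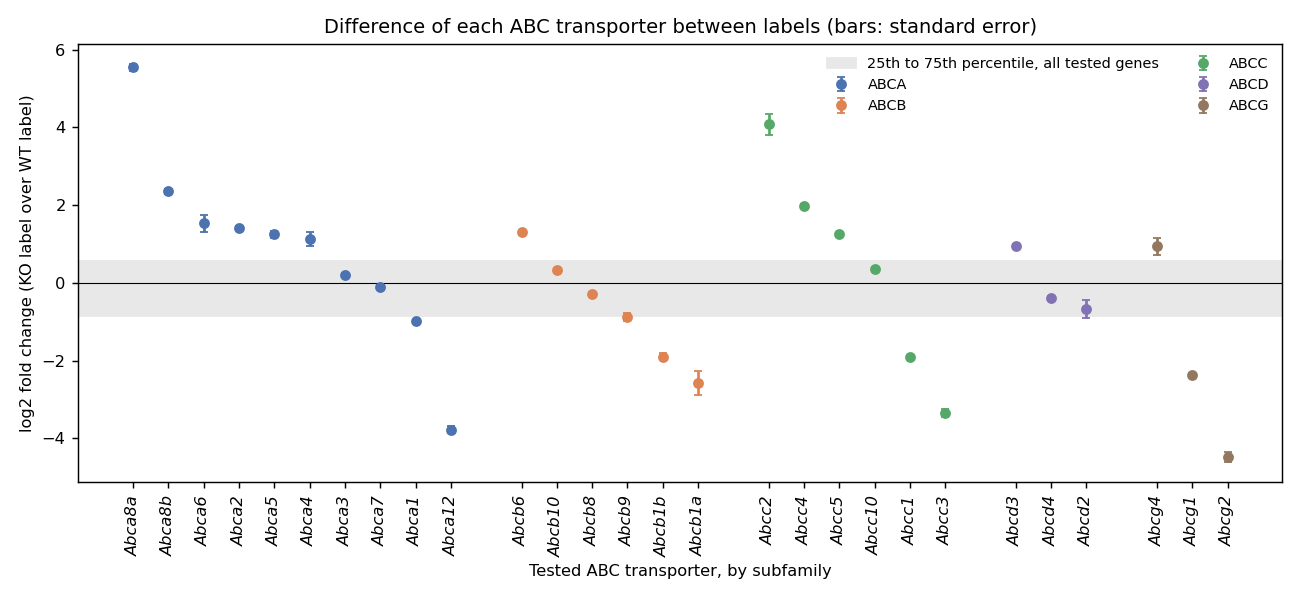
Log2 fold change (KO-labelled over WT-labelled libraries, bars are standard errors) of the 28 tested ABC transporters, ordered within each subfamily; the grey band runs from -0.85 to 0.57, the 25th to 75th percentile of all tested genes. Values run from 5.54 for Abca8a to -4.49 for Abcg2, and each of the 5 subfamilies has members on both sides of 0.

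By subfamily, 2 of the 6 tested members of B were called higher and 4 lower, and 4 of 6 in C higher and 2 lower. In D 1 of 3 was called higher and 2 lower, and in G 1 of 3 higher and 2 lower. Among all tested genes 39.4% were called higher and 42.1% lower, and nothing is read from these small counts. Abcg3, a rodent gene related to Abcg2, had 1, 3 and 0 reads against 0, 0 and 1 reads and was not tested.

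Levels of different genes were compared by deposited RPKM. Under the WT label the order was led by Abcc1 (50.8 ± 1.35 RPKM), Abca1 (44.8 ± 1.36), Abcd3 (24.8 ± 1.74), Abca3 (20.6 ± 1.08) and Abcg1 (19.8 ± 0.448; SD, n = 3 each). Under the BAP1 KO label it was led by Abcd3 (48.6 ± 1.15 RPKM), Abca3 (24.3 ± 1.12), Abca1 (23.3 ± 0.667), Abca2 (22.9 ± 1.33) and Abcc5 (15.5 ± 0.438). The libraries of Abca3 and Abca1, and of Abca1 and Abca2, overlapped in that order, as did Abcc5 and the next gene, Abca7. Under the WT label Abca3 and Abcg1 overlapped. The first 5 genes made up 60.1% of the summed RPKM of the 36 under the WT label and 54.9% under the KO label. Abca8a, for all its difference, reached 3.52 ± 0.0441 RPKM under the KO label, below Abca8b at 11.5 ± 0.144 RPKM. Abca8b made up 76.3% to 76.7% of the summed RPKM of this pair under the KO label and 96.6% to 96.9% under the WT label.

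**Figure D4:**
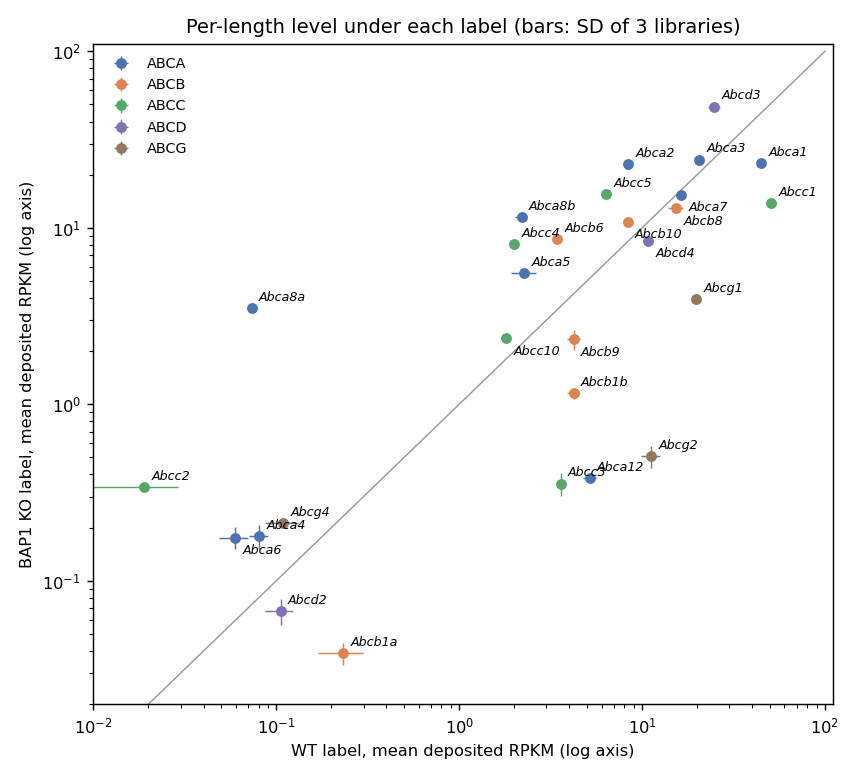
Mean deposited RPKM of the 28 tested ABC transporters under the KO label against the WT label (both axes log, bars are the SD of 3 libraries, the line marks equal levels). Abcd3 is highest under the KO label at 48.6 RPKM and Abcc1 under the WT label at 50.8 RPKM, and Abca8a lies farthest above the line.

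The summed level of all 36 was 239 to 249 RPKM in the KO-labelled libraries and 264 to 271 RPKM in those labelled WT, while the makeup differed more. Subfamily A made up 43.7 ± 0.629% under the KO label and 37.4 ± 0.125% under the WT label, and subfamily D 23.3 ± 0.863% and 13.4 ± 0.483%. Subfamily C made up 16.5 ± 0.121% and 24.2 ± 0.520%, and subfamily G 1.90 ± 0.0760% and 11.7 ± 0.355%. Subfamily B was 14.6 ± 0.219% and 13.5 ± 0.564%.

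**Figure D5:**
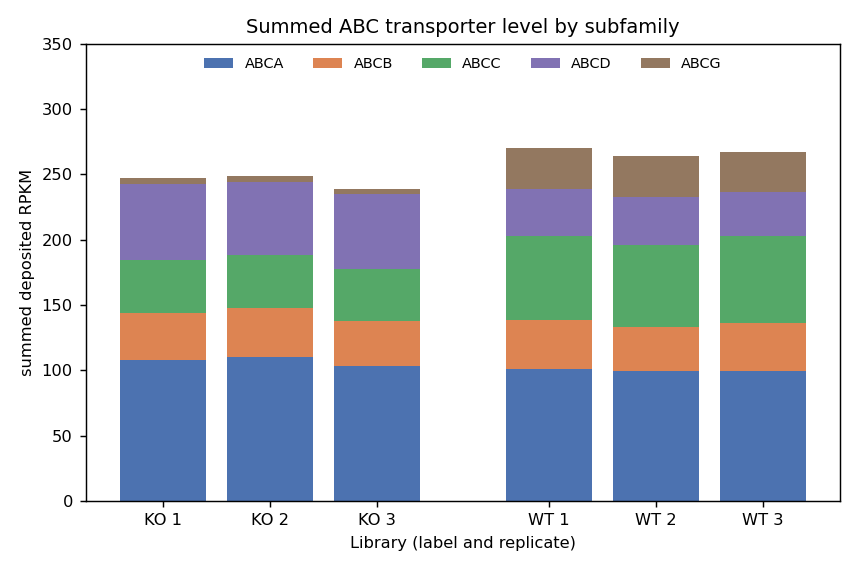
Summed deposited RPKM of the 36 ABC transporters in each of the 6 libraries, stacked by subfamily. Totals are 239 to 249 under the KO label and 264 to 271 under the WT label, and the subfamily G segment is 4.34 to 4.88 and 30.1 to 31.8 RPKM.

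The family has 17 further genes that were not on the list, of which 10 were tested. Of these 3 were called higher and 5 lower (39.4% and 42.1% of all tested genes), with a median log2 of -0.16. Tap2, a subunit of the peptide transporter that feeds MHC class I, was higher (log2 0.70, SE 0.049), with 18.5% of its exons overlapping other genes. Tap1, the other subunit, was lower at -0.26 (SE 0.05). The chloride channel Cftr (-2.79, SE 0.23) and the bile salt pump Abcb11 (-1.49, SE 0.23) were lower at 0.164 against 1.15 CPM and 0.274 against 0.782 CPM. Abce1, a ribosome recycling factor without membrane domains, and Abcf2 were lower at -0.47 (SE 0.082) and -0.34 (SE 0.039), and Abcf1 and Abcf3 were not called (-0.06, SE 0.05, and 0.09, SE 0.043). Abca14, Abca15, Abca16, Abca17, Abcc12, Abcg5 and Abcg8 did not pass the filter.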

How the data were processed

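PolyA RNA of 6 libraries was sequenced as single-end reads of 50 bases from an unstranded preparation, per the labels' protocols. Per the file headers, the deposited counts are reads aligned uniquely to each gene model, and the deposited RPKM values are adjusted by a size factor. GSNAP and GRCm38 are named in the submitters' processing notes; neither a counting tool nor an annotation is named there (not given in the sources used here). Gene IDs were matched to RefSeq (GRCm38.p6) for 85.0% of 36528 gene models; the others held 1.09% of reads. Counts of all genes were filtered (filterByExpr, minimum count 10, minimum total 15), given TMM factors, which lay between 0.975 and 1.03, and fitted without covariates by the quasi-likelihood test (glmQLFit, glmQLFTest) of edgeR 4.0.16 in R 4.3.3. Calls use a Benjamini-Hochberg adjusted p under 0.05 over 17121 genes. Each standard error divides the size of the log2 fold change by the root of its F statistic. The script was tested on simulated data. Library pairs within a group differed beyond sampling noise, by 2.01 to 4.10 chi-square units for each degree of freedom under the KO label. Under the WT label the values were 3.91 to 17.4, the highest for WT replicates 2 and 3. Exon overlap and shared 50-base sequences come from GENCODE M21, and sequences from RefSeq. All members are named, and from each other list up to 4 called genes with the largest absolute log2 fold change and at least 2 CPM in the higher group. The members and lists were chosen with earlier results of these data known. Alternatives were DESeq2 1.42.0 and its size factors, library totals, upper-quartile factors, no count filter, at least 5 CPM in 3 libraries, limma-voom (limma 3.58.1), the robust option, an adjusted p under 0.01, leaving out each library, and for levels TMM-scaled counts per relative length. Scaling by the authors' library factors was chosen after seeing the data. A few genes of the other lists are counted but not reported here by name.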

Additional observations from a re-analysis of the deposited data

How the results depend on the processing

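Every tested member kept its direction under every alternative that tested it. The number of members called higher was 15 under every alternative except the filter of at least 5 CPM in 3 libraries, which tested 22 members and gave 11 higher and 11 lower. The number called lower ranged from 11 to 14. The changes were in Abca7, which was called lower under 7 alternatives (log2 -0.06 to -0.19 over all), in Abcd2, which was not called under 6 (-0.54 to -0.79), and in low members tested only without the filter or with a library left out. Leaving out each library gave 15 members higher and 11 to 13 lower, and over all genes 6506 to 7117 higher and 6915 to 7260 lower. No scaling alternative moved the median log2 of all genes by over 0.1; testing without a count filter gave -0.18 over 27083 genes, a shift of -0.15. Without a count filter 1 of the potassium channel partners was called lower. With at least 5 CPM in 3 libraries, 2 macrophage markers were called higher and 2 endothelial and mural markers lower, since only 5 genes of either list were tested. No paired analysis was possible because the labels carry no replicate numbers. The replicate numbers used above only tell the libraries of a group apart and pair none of them. Depth limits the low members: 8 of the 36 had too few reads for the filter.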
